A study of Homo sapiens with 96 samples.

Results

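Kinesins are motor proteins that walk along microtubules, and their mRNAs were followed in A375, an established line of human melanoma that carries an activating mutation of the BRAF kinase. The genes were taken by name alone, as the rows of the count table whose symbol is KIF followed by a number and at most 1 letter from A to C, or KIFC followed by a number. This rule found 42 of the 44659 rows, and no measured value entered it. Of these, 12 were set apart by their role as mitotic kinesins (KIF2C, KIF4A, KIF11, KIF14, KIF15, KIF18A, KIF18B, KIF20A, KIF20B, KIF22, KIF23 and KIFC1), and the other 30 are called the other kinesins. The filter on low counts kept all 12 mitotic kinesins and 21 of the others.

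Pretreatment lasted 18 h, either with DMSO or with MAPKi, which is 500 nM of the BRAF inhibitor vemurafenib plus 500 nM of the MEK inhibitor cobimetinib. Each was followed by 1 of 4 arms: vehicle, 100 µg/ml cycloheximide (CHX, a block of translation elongation), 25 µM triptolide (T, a block of transcription, spelled tryptolide in the labels), or cycloheximide 5 min ahead of triptolide (TCHX). Dishes were collected at 0, 1, 3 and 5 h, each time being a batch of its own per the labels, so that time and batch cannot be told apart. This made 32 groups of 3 libraries and 96 in all, each from 500 ng of cytoplasmic RNA of this single line. The study asked which mRNAs are lost because they are being translated, and how MAPKi changes that loss. QuantSeq primes on the poly(A) tail, so reads come from transcript ends whatever the length of the transcript. Levels are in scaled counts (CPM, the count that a library of 1e6 reads would give) and need no correction for length between genes. Genes can still differ in how fully their reads were counted, so an order of levels across genes is approximate.

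Mitotic kinesins build and use the spindle: some push poles apart, some shorten or hold chromosome microtubules, and some gather at the midzone to drive cytokinesis. The others mainly carry cargo toward the plus end of microtubules, such as vesicles, mitochondria and endosomes, or serve the cilium. Genes of late cell cycle proteins commonly carry near their start a cell cycle homology region, TTTGAA or TTTAAA, which is bound by the DREAM and MuvB complexes, together with CCAAT boxes, which are bound by NF-Y. MAPK signalling drives entry into the cell cycle in BRAF-mutated melanoma cells.

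The promoters of the mitotic kinesins shared letters that the naming rule did not use. RefSeq promoters, 250 bases before to 50 after the start on GRCh38.p14, were found for 34 of the 42 genes, that is for the 12 mitotic kinesins and 22 others. TTTGAA, searched on both strands, lay in 9 of 12 mitotic kinesins (75%), in 2 of 22 others (9.09%) and in 14.5% of the 11024 genes tested that had a promoter. TTTAAA, which reads the same on both strands, lay in 33.3% of the mitotic kinesins, 4.55% of the others and 11.8% of the tested genes. At least 1 of these 2 words was present in 11 of 12 mitotic kinesins (91.7%), all but KIF22, in 3 of 22 others (KIF16B, KIF4B and KIF5B) and in 22.4% of the tested genes. In the 11 genes, the match nearest to the start began between 55 bases upstream and 24 bases downstream of it.

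CCAAT, searched together with its complement ATTGG, was in 10 of 12 mitotic kinesins (83.3%), 36.4% of the others and 43.5% of the tested genes. In the 10 genes the copy nearest to the start began between 98 and 22 bases upstream. Both kinds of word stood in 9 of 12 mitotic kinesins (75%), 9.09% of the others and 9.59% of the tested genes. The E2F-type word GGCGGGAA, or its complement, was in none of the kinesin promoters and in 6.14% of the tested genes. These are matches of letters and not shown binding sites, the words were searched independently so that matches sharing bases each count, and the absence of a word says only that these letters are not in the window.

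The promoters of 4 mitotic kinesins whose levels carry the comparisons below, and of the 2 most abundant other kinesins as a contrast, are given 5′ to 3′ on the strand of the gene, with matches to these words in capitals. On GRCh38.p14, KIF20B spans chr10:89701340-89701639 on the plus strand, KIF4A spans chrX:70289854-70290153 on the plus strand, KIF2C spans chr1:44739587-44739886 on the plus strand, KIF23 spans chr15:69414099-69414398 on the plus strand, KIF5B spans chr10:32056376-32056675 on the minus strand, and KIF1C spans chr17:4997700-4997999 on the plus strand.
KIF20B: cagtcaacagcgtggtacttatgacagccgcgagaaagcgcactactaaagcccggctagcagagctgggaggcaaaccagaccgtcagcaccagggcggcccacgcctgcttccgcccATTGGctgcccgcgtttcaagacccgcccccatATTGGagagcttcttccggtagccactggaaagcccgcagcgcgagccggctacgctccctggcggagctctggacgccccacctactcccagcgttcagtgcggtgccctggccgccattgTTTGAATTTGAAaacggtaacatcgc
KIF4A: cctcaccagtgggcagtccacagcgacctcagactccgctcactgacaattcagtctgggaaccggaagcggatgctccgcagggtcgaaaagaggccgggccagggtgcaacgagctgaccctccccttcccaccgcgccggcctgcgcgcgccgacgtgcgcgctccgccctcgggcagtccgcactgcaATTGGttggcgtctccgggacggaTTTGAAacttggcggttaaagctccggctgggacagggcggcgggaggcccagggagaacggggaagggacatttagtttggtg
KIF2C: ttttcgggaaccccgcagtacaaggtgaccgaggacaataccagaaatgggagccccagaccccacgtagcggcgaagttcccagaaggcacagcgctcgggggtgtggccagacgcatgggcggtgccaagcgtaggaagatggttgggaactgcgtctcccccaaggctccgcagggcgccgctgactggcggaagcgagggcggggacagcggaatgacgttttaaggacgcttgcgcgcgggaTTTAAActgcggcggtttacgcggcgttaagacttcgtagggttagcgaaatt
KIF23: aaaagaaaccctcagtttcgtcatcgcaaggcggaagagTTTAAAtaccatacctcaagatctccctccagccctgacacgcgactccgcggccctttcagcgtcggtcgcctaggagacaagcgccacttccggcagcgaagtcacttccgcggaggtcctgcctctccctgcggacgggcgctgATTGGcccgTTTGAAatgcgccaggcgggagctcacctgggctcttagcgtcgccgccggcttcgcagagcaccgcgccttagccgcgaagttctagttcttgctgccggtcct
KIF5B: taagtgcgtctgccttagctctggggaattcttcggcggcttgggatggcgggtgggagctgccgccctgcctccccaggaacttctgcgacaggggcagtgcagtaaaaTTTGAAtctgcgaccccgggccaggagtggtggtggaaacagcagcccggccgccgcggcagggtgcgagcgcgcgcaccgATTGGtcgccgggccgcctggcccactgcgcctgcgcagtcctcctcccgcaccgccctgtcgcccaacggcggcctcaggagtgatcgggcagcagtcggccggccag
KIF1C: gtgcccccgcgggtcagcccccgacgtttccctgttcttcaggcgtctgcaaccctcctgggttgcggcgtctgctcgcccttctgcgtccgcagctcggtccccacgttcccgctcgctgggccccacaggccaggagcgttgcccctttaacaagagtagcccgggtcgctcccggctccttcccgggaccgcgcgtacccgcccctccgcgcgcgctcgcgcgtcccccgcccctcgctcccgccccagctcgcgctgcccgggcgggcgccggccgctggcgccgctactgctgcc

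KIF20B holds TTTGAA 2 times in a row, starting 24 and 30 bases after the start, and KIF4A and KIF23 hold it 34 and 55 bases upstream. KIF2C has TTTAAA across its start and no CCAAT. Of the cargo carriers shown, KIF5B holds both kinds of word, whereas KIF1C has neither TTTGAA nor TTTAAA.

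Libraries held between 2381351 and 12520154 counts (median 7143396), and log2 counts of libraries of the same group correlated at 0.96 to 0.99 across genes. Of the melanocyte lineage markers, MITF (135 to 532 CPM), SOX10 (53.5 to 571 CPM), DCT, S100B and S100A1 were present in every library, while PMEL, MLANA and TYR had medians of 3.42, 0.28 and 0.125 CPM. CD3E and KRT5 were at 0 in all libraries, and PTPRC, EPCAM, PECAM1, COL1A1, VWF and KRT14 stayed at or below 4.69 CPM. Between pretreatments these markers moved too: 5 of the 7 lineage markers tested were higher and 1 lower in MAPKi at 0 h (DCT by 5.29 on the log2 scale), as were 2 of the 4 tested markers of other cell types, KRT14 by 4.82 and VWF by 2.88. Their part in the results on kinesins was not tested. The labels do not say that the 3 libraries of a group came from separate cultures, so p-values measure the spread between these libraries, which may be technical.

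Of the 9 kinesins that did not pass the filter, KIF19 and KIF2B had no count in any library. The other 7 were KIF12 with 8 counts over all 96 libraries, KIF25 with 8, KIF26A with 7, KIF26B with 1, KIF1A with 118, KIF4B with 138 and KIF17 with 211. KIF4B is a near-identical copy of KIF4A, so reads could be split between them. A further 12 rows that begin with KIF fell outside the rule, among them antisense genes and repeat rows of KIF15, KIF5C, KIF26B and KIFC1. Counts of KIF20A, KIF24, KIF2A, KIF7, KIF9 and KIFC2 are uncertain because another gene overlaps their 3′ end on the opposite strand and the use of strand in counting was not stated.

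The mean level over the 96 libraries spanned from 422 CPM for KIF5B to 0.615 CPM for KIF21B. KIF5B, the widely expressed heavy chain of conventional kinesin, led at 495 CPM in the DMSO vehicle group at 0 h, followed by KIF1C, a carrier of vesicles, at 195 CPM. The mitotic kinesins KIF20B and KIF4A came next at 165 and 146 CPM, and their 3 libraries overlapped. KIF18A, KIFC1 and KIF15 were the lowest of the mitotic set, at 11.7, 2.05 and 0.591 CPM. KIF15, with 455 counts in all libraries together, and KIFC1, with 1011, are therefore measured with little depth. Both also have repeat rows outside the rule (KIF15_1 with 9 counts, KIFC1_1 with 12 and KIFC1_2 with 2). Whether reads of these genes were lost in counting was not tested.

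After 18 h of MAPKi, before any block of transcription or translation, 7 of 12 mitotic kinesins were lower and 0 higher than in DMSO (edgeR quasi-likelihood test, Benjamini-Hochberg adjusted p under 0.05 over 14948 genes, n = 3 per group). Over all genes tested, 24.0% were lower and 21.9% higher. The 0 mitotic kinesins higher remained 0 at an unadjusted p under 0.05 and in DESeq2, here and at 1 and 5 h. Of the 21 other kinesins, 6 were higher and 5 lower. The median log2 difference (MAPKi minus DMSO) was −0.52 for the mitotic kinesins, 0.01 for the other kinesins and 0.03 for all genes. In bulk RNA, fewer cells that express a gene and less of its RNA per cell cannot be told apart.

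Of the motors that act at the spindle midzone or in cytokinesis, KIF23, KIF20B, KIF4A and KIF14 were lower and KIF20A was not. KIF23, the motor subunit of centralspindlin, stood at 94.1, 88.6 and 100 CPM in the DMSO libraries and at 48.9, 42.6 and 42.7 CPM with MAPKi. The groups did not overlap, and the log2 difference was −1.07 with a standard error of 0.13 (adjusted p 9.34e-11), a 2.11-fold lower level. KIF20B, which acts late in cytokinesis, had 168, 172 and 156 CPM against 113, 95.2 and 108 CPM. It was 1.56-fold lower in MAPKi (log2 −0.65 ± 0.09 SE, adjusted p 1.56e-08), again without overlap.

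KIF4A is a chromokinesin that works with PRC1 on the central spindle. It had 157, 145 and 135 CPM in DMSO and 100, 106 and 108 CPM in MAPKi, so that every MAPKi library lay below every DMSO library (log2 −0.47 ± 0.09 SE, adjusted p 1.04e-05). KIF14, which binds citron kinase at the midbody, had 71.3, 64.8 and 53.9 CPM against 48.4, 54.0 and 52.0 CPM, and its groups met at 54 CPM (log2 −0.29 ± 0.12 SE, adjusted p 0.0303). KIF20A, which brings Aurora B to the midzone, did not pass the test, at 40.4, 58.7 and 67.1 CPM against 80.2, 58.3 and 74.4 CPM (log2 0.35 ± 0.26 SE, adjusted p 0.284).

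The motors at chromosomes and microtubule ends were mixed. KIF22, which pushes on chromosome arms, had 81.1, 85.0 and 71.9 CPM in DMSO and 51.3, 51.9 and 53.4 CPM in MAPKi (log2 −0.60 ± 0.13 SE, adjusted p 0.000128). KIF2C, a microtubule depolymerase at centromeres, had 79.0, 110 and 105 CPM against 69.2, 61.5 and 67.2 CPM (log2 −0.57 ± 0.15 SE, adjusted p 0.00107). In both genes the groups did not overlap. KIF18A, which damps chromosome movements, had 13.5, 9.08 and 12.6 CPM against 9.87, 9.30 and 9.30 CPM (log2 −0.30 ± 0.25 SE, adjusted p 0.332), and KIF18B, which limits the length of astral microtubules, had 16.0, 34.0 and 36 CPM against 20.7, 9.48 and 16.3 CPM (log2 −0.89 ± 0.40 SE, adjusted p 0.0582). Neither passed the test, and in both the groups overlapped.

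Of the motors that shape spindle poles, KIF11 did not pass the test and KIF15 and KIFC1 were barely detected. KIF11, also named Eg5, which drives the poles apart, had 50.2, 40.7 and 49.2 CPM against 44, 43.6 and 38.3 CPM (log2 −0.15 ± 0.12 SE, adjusted p 0.292). KIF15, which can stand in for KIF11, had 0.829, 0.626 and 0.317 CPM against 0.823, 0.358 and 1.48 CPM (log2 0.67 ± 1.01 SE, adjusted p 0.628). The minus-end motor KIFC1, which focuses poles, had 2.28, 2.82 and 1.06 CPM against 0.548, 0.894 and 0.943 CPM (log2 −1.33 ± 0.57 SE, adjusted p 0.0484). KIFC1 kept its call in 1 of 7 alternative settings (highest adjusted p 0.281) and KIF14 in 3 of 7 (highest 0.459, without replicate 1), whereas KIF20B, KIF22, KIF23, KIF2C and KIF4A kept theirs in all 7.

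**Figure D1:**
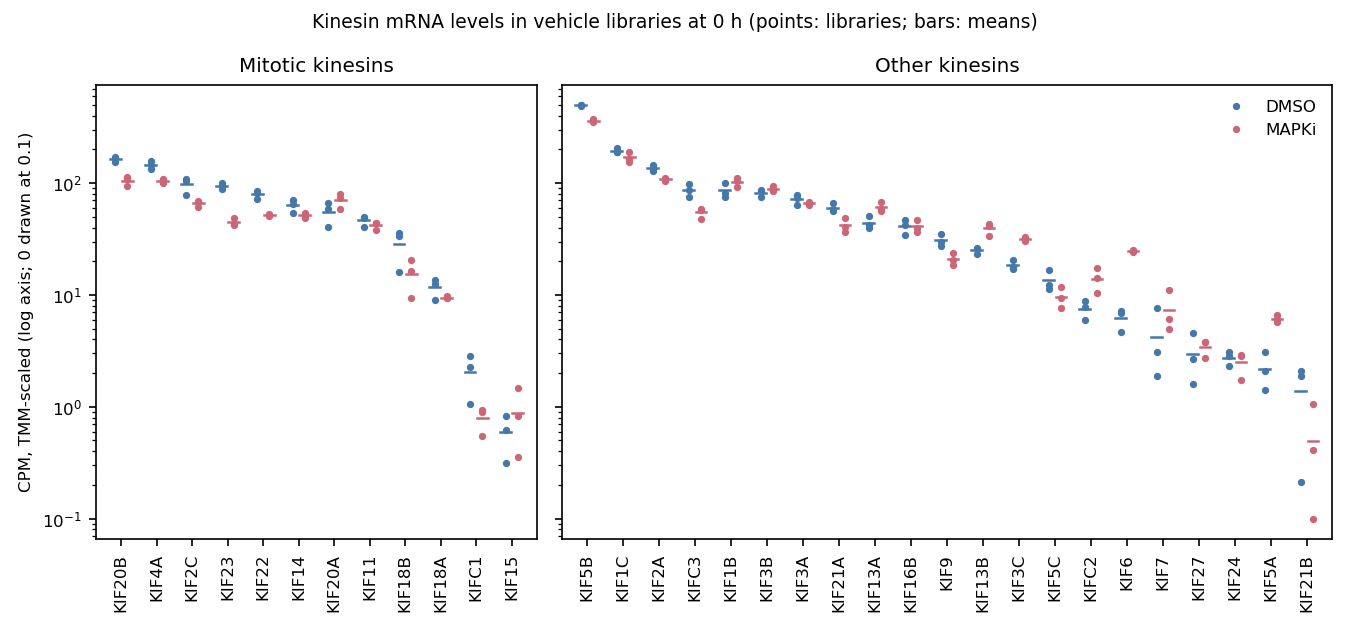
Levels of the 33 kinesins that passed the filter in the vehicle libraries at 0 h, in CPM on a log axis, with 1 point per library (3 DMSO in blue, 3 MAPKi in red) and a bar at each group mean. Among mitotic kinesins, the MAPKi points lie below the DMSO points for KIF20B, KIF4A, KIF2C, KIF23, KIF22 and KIFC1. Among the other kinesins they lie below for KIF5B, KIF2A, KIFC3, KIF21A and KIF9, and above for KIF6, KIF5A, KIF3C, KIF13A, KIF13B and KIFC2.

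The other kinesins split by gene rather than as a group. KIF5B had 497, 490 and 498 CPM in DMSO and 352, 377 and 356 CPM in MAPKi, a 1.37-fold lower level (log2 −0.45 ± 0.06 SE, adjusted p 3.08e-09). KIF2A, a depolymerase that acts in interphase and at spindle poles, had 137, 129 and 144 CPM against 107, 104 and 112 CPM (log2 −0.34 ± 0.08 SE, adjusted p 0.000209). Neither gene's groups overlapped. The minus-end motor KIFC3 was also lower, at 75.3, 99.2 and 87.7 CPM against 58.4, 47.8 and 58.1 CPM (log2 −0.67 ± 0.14 SE, adjusted p 2.28e-05), as were KIF21A (log2 −0.52, adjusted p 0.00228) and the ciliary kinesin KIF9 (log2 −0.56, adjusted p 0.00168).

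The 2 largest rises were in kinesins of low level. KIF6, a kinesin of motile cilia, had 6.84, 4.69 and 7.19 CPM in DMSO and 24.1, 24.7 and 25.1 CPM in MAPKi, a 3.92-fold higher level (log2 1.97 ± 0.24 SE, adjusted p 4.12e-11). KIF5A, the neuronal heavy chain of conventional kinesin, had 2.07, 1.41 and 3.07 CPM against 5.76, 6.08 and 6.60 CPM (log2 1.45 ± 0.38 SE, adjusted p 0.000979). In each of these genes the lowest MAPKi library was above the highest DMSO library. KIF3C, a subunit of heteromeric kinesin-2, rose as well, from 17.8, 20.5 and 17.1 CPM to 30.4, 32.7 and 31.5 CPM (log2 0.77 ± 0.16 SE, adjusted p 4.22e-05).

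The endosome and melanosome motor KIF13A (log2 0.47, adjusted p 0.00198), its paralogue KIF13B (0.66, adjusted p 2.08e-05) and KIFC2 (0.88, adjusted p 0.0107) completed the rises. Among the most abundant carriers, KIF1C had 208, 188 and 189 CPM against 156, 188 and 165 CPM (log2 −0.20 ± 0.14 SE, adjusted p 0.251). KIF1B, which carries mitochondria and synaptic vesicle precursors, had 101, 81.4 and 75.9 CPM against 112, 92.3 and 104 CPM (log2 0.26 ± 0.11 SE, adjusted p 0.0553), and KIF3B had 87.7, 84.7 and 74.9 CPM against 94.6, 87.8 and 84.7 CPM (log2 0.11 ± 0.10 SE, adjusted p 0.352). These 3 overlapped between groups and did not pass the test. Leaving out 1 replicate number ended the calls of KIF13A (highest adjusted p 0.0889, without replicate 1), KIFC2 (0.154, without replicate 1 or 2) and KIF21A (0.0619, without replicate 2 or 3).

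The vehicle dishes collected later repeated the comparison in other libraries. At 1 h, 8 mitotic kinesins were lower and 0 higher (24.3% and 23.1% of all genes), at 3 h 10 were lower and 1 higher (23.6% and 22.1%), and at 5 h 7 were lower and 0 higher (23.6% and 22.3%). The median difference of the mitotic kinesins was −0.58, −0.79 and −0.58 on the log2 scale, against 0.04, −0.06 and 0.17 for the other kinesins and 0.01, 0.04 and 0.06 for all genes. Of the other kinesins, 6 were higher and 5 lower at 1 h, 5 and 5 at 3 h, and 4 and 4 at 5 h.

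KIF14, KIF20B, KIF23, KIF2C and KIF4A, 5 of the 12 mitotic kinesins, were lower at all 4 times, as were 15.9% of all genes tested. The log2 difference was below 0 at every time in 10 of the 12 and in 32.3% of all genes. KIF20A was above 0 at all 4 times, as were 35.7% of all genes, and never passed the test. The largest falls at 1 h were in the kinesin-8 genes KIF18A (5.29, 2.17 and 5.67 CPM against 14.1, 9.98 and 13.6 CPM in DMSO, log2 −1.46 ± 0.26 SE) and KIF18B (11.1, 13.5 and 19.2 CPM against 37.4, 37.5 and 40.2 CPM, log2 −1.37 ± 0.40 SE). At 3 h they were in KIFC1 (log2 −2.03 ± 0.57 SE, with 0 CPM in 1 MAPKi library), KIF23 (−1.20), KIF18B (−1.02) and KIF2C (−0.98).

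At 5 h KIF22 and KIF4A led the falls. KIF22 had 38.5, 36 and 29.8 CPM against 85.3, 93.5 and 76.5 CPM (log2 −1.29 ± 0.14 SE, adjusted p 5.99e-13), and KIF4A had 77.8, 92.1 and 77.4 CPM against 172, 174 and 155 CPM (log2 −1.02 ± 0.09 SE, adjusted p 4.78e-16). KIF11, which had not passed at 0 h, was lower at 1 h (−0.53), 3 h (−0.79) and 5 h (−0.64), although its difference from 0 to 5 h did not pass the test of the interaction (−0.48 ± 0.17 SE, adjusted p 0.174). The only mitotic kinesin called higher at any time was KIF15 at 3 h, where 1 MAPKi library had 9.28 CPM and the others 1.11 and 0.234 CPM; without replicate 1, which holds it, the log2 difference fell from 2.97 to 0.40 (adjusted p 0.866).

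Among the other kinesins, KIF13A, KIF13B, KIF3C and KIF6 were higher at all 4 times (4 of 21, against 13% of all genes), KIF2A, KIF5B and KIFC3 were lower at all 4 (3 of 21, against 15.9%), and 7 of 21 were never called (32.8% of all genes). At 5 h the rises were 2.23 for KIF6, 1.26 for KIF13A, 1.03 for KIF13B and 0.93 for KIF3C on the log2 scale. At 1 h KIF6 (2.03) and KIF5A (1.3) led the rises and KIFC3 (−1.02) the falls, and at 3 h KIF6 (1.46) and KIFC2 (1.04) led. KIF5A did not pass the test at 3 h (0.23, adjusted p 0.649) or at 5 h (0.88, adjusted p 0.0512). Leaving out 1 replicate number ended calls of KIF11, KIF13A, KIF14, KIF1B, KIF4A, KIF5A and KIF5C at 1 h (highest adjusted p 0.327, KIF5C), of KIF14, KIF15, KIF18A, KIF18B, KIF21A, KIF9 and KIFC3 at 3 h, and of KIFC3 at 5 h (adjusted p 0.274, without replicate 3).

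Taking all times together, 4 mitotic kinesins had each of their 12 MAPKi vehicle libraries below each of the 12 DMSO ones, as did 13.2% of all genes tested. KIF20B ranged over 86.8 to 118 CPM in MAPKi and 155 to 178 CPM in DMSO, KIF23 over 36.8 to 56.8 and 88.6 to 126 CPM, KIF2C over 55.9 to 78.4 and 79.0 to 148 CPM, and KIF4A over 77.4 to 120 and 133 to 174 CPM. KIF2A, KIF5B and KIFC3 were separated in the same way among the other kinesins. In the opposite direction, KIF6 (16.0 to 34.3 CPM in MAPKi against 2.82 to 8.39 CPM in DMSO), KIF13A, KIF13B and KIF3C lay wholly above, as did 10.2% of all genes, and 0 mitotic kinesins did.

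**Figure D2:**
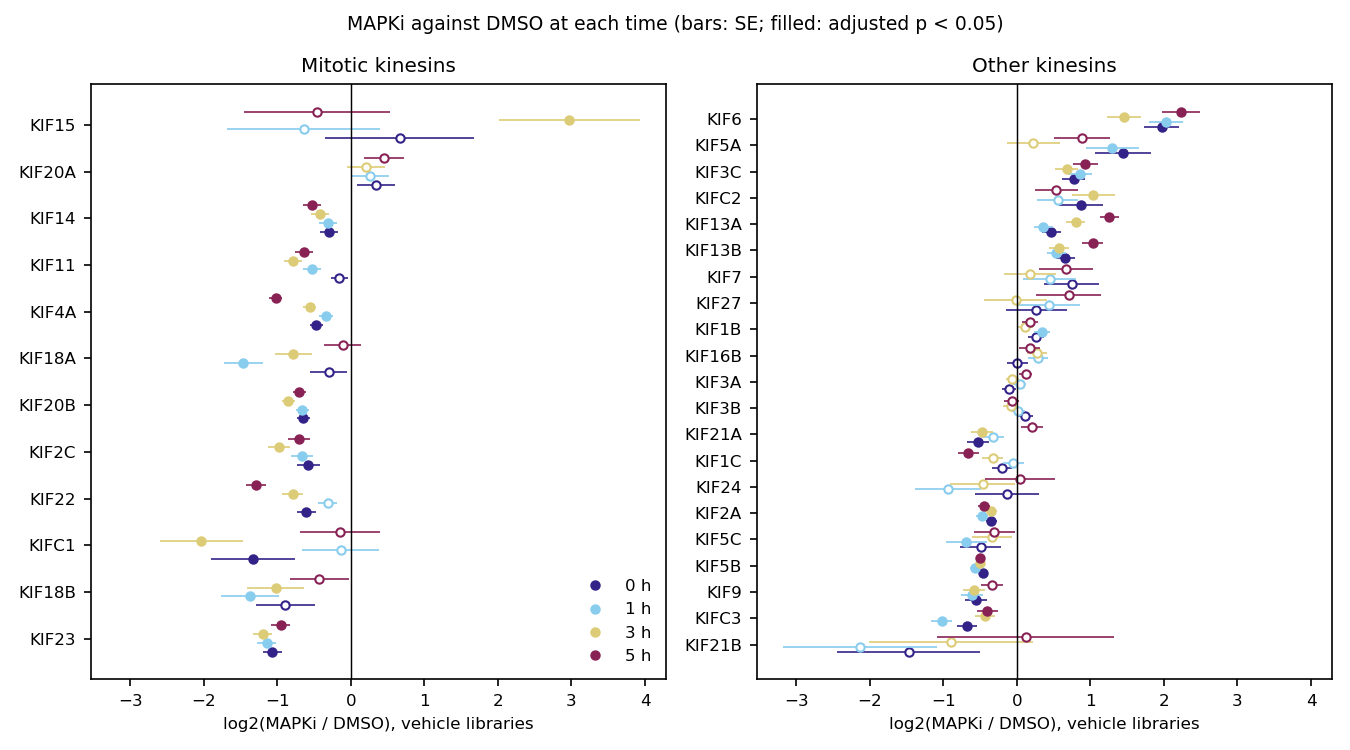
Log2 difference of MAPKi minus DMSO in the vehicle libraries at 0, 1, 3 and 5 h (colours) for each kinesin, with bars for the standard error and filled points where the adjusted p was under 0.05. KIF23, KIF20B, KIF2C, KIF4A and KIF14 are filled on the left at all 4 times, and KIF6, KIF13A, KIF13B and KIF3C on the right.

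The pretreatment difference itself moved between 0 and 5 h for 2 kinesins, where 0.254% of all genes passed upward and 0.482% downward. KIF13A went from 44 to 31.7 CPM in DMSO and from 60.9 to 76.7 CPM in MAPKi (group means, interaction log2 0.79 ± 0.19 SE, adjusted p 0.0196). KIF4A went from 146 to 167 CPM in DMSO and from 105 to 82.4 CPM in MAPKi (−0.55 ± 0.13 SE, adjusted p 0.019). Neither kept its call when any 1 replicate number was left out (highest adjusted p 0.672 and 0.308).

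The partners of the motors were compared from lists of their known roles. These lists include CENPE, itself a mitotic kinesin whose symbol the naming rule does not match. Of 17 mitotic partners, 12 were lower and 1 higher in MAPKi at 0 h, with a median of −0.40 on the log2 scale, where 24.0% of all genes were lower and 21.9% higher and the median of all genes was 0.03. The falls were led by AURKB, the kinase of the chromosomal passenger complex (−0.94 ± 0.11 SE, adjusted p 2.73e-11), FAM83D, which binds KIF22 at the spindle (−0.89 ± 0.25 SE, adjusted p 0.00233), and PLK1, a mitotic kinase (−0.73 ± 0.12 SE, adjusted p 7.83e-07). At 1, 3 and 5 h, 9, 15 and 15 of the 17 were lower (24.3%, 23.6% and 23.6% of all genes) and 1, 1 and 0 higher (23.1%, 22.1% and 22.3%).

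Kinesin light chains and adaptors had 6 higher and 1 lower of the 14 that passed the filter, out of 16 listed, with a median of 0.15, against the same 21.9% higher, 24.0% lower and median of 0.03 for all genes. TRAK1, which links kinesin to mitochondria, was 2.26 ± 0.14 SE higher on the log2 scale (adjusted p 5.87e-24), the light chain KLC4 was 1.94 ± 0.28 SE higher (adjusted p 1.66e-08), and the kinesin-1 adaptor FEZ1 was 1.48 ± 0.46 SE higher (adjusted p 0.00519). Dynein, the minus-end motor, and its activator dynactin had 9 higher (47.4%) and 5 lower (26.3%) of 19 (21 listed), with a median of 0.24, and its share of lower genes was near that of all genes. DYNLT3, a dynein light chain, was lower by the most among those called (−1.73 ± 0.21 SE, adjusted p 2.66e-11), and the intermediate chain DYNC1I1 (1.47 ± 0.22 SE, adjusted p 2.66e-08) and the dynactin subunit DCTN3 (0.74 ± 0.12 SE, adjusted p 5.71e-07) were higher. By 5 h the dynein and dynactin list had 3 higher and 5 lower, where 22.3% of all genes were higher and 23.6% lower.

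Libraries of the inhibitor arms collected at 0 h were set against vehicle as the background of each arm. No gene passed in edgeR for CHX, T or TCHX (0, 0 and 0 of 14948), with 441, 869 and 659 genes at an unadjusted p under 0.05, and DESeq2 called 1, 1 and 0. Among kinesins, the unadjusted threshold was passed by 0 with CHX, by 4 with T (KIF15, KIF23, KIF9 and KIFC2) and by 1 with TCHX (KIF11).

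Cycloheximide without triptolide was set against vehicle, averaged over 3 and 5 h. The few mitotic rises in DMSO cells were not far above the share of all genes. In DMSO cells 3 mitotic kinesins were higher and 0 lower with CHX than with vehicle, and 3 other kinesins were higher and 6 lower, where 18.3% of all genes were higher and 13.4% lower. The count of 0 was also 0 at an unadjusted p under 0.05 and in DESeq2. In MAPKi cells 5 mitotic kinesins were higher and 1 lower, and 0 other kinesins were higher and 4 lower, where 15.9% of all genes were higher and 13.9% lower. At an unadjusted p under 0.05, 1 other kinesin (KIF7) was higher, and 0 in DESeq2. Median differences were 0.10 in DMSO and 0.22 in MAPKi for mitotic kinesins, 0.03 and −0.07 for other kinesins, and 0.01 and −0.01 for all genes.

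KIF20B rose in both pretreatments. In DMSO it had 177, 168 and 173 CPM with vehicle at 3 h and 178, 155 and 162 CPM at 5 h, against 207, 205 and 197 CPM and 256, 271 and 279 CPM with CHX. In MAPKi it had 102, 92.2 and 92.6 CPM and 86.8, 118 and 100 CPM with vehicle, against 131, 142 and 140 CPM and 144, 145 and 144 CPM with CHX. At each time every CHX library exceeded every vehicle library, and the log2 differences were 0.47 ± 0.07 SE (adjusted p 1e-08) and 0.51 (adjusted p 1.4e-09).

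KIF18A had 13.4, 13.4 and 11.9 CPM at 3 h and 11.3, 9.26 and 8.86 CPM at 5 h with vehicle in DMSO, against 16.1, 17.8 and 16.0 CPM and 20.2, 25.9 and 30.3 CPM with CHX (log2 0.88 ± 0.17 SE, adjusted p 1.84e-05). KIF2C rose by 0.39 in both pretreatments (adjusted p 0.00228 in DMSO and 0.00265 in MAPKi). Its 5 h libraries in DMSO had 88, 94.8 and 118 CPM with vehicle and 135, 152 and 175 CPM with CHX, without overlap. KIF18A (0.43), KIF22 (0.35) and KIF4A (0.20) also passed in MAPKi, where each lost its call when 1 replicate number was left out (highest adjusted p 0.407, 0.0695 and 0.315), as KIF2C did without replicate 2 (0.0633).

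KIF5B fell in both pretreatments. In DMSO its vehicle libraries had 518, 527 and 514 CPM at 3 h and 512, 478 and 507 CPM at 5 h, and its CHX libraries had 419, 409 and 399 CPM at 3 h and a mean of 355 CPM with an SD of 17.9 at 5 h (log2 −0.42 ± 0.04 SE, adjusted p 7.63e-13). In MAPKi they had 349, 391 and 368 CPM and 359, 355 and 343 CPM with vehicle, against 255, 275 and 257 CPM and 201, 221 and 224 CPM with CHX (log2 −0.60 ± 0.04 SE, adjusted p 1.69e-19). The vehicle and CHX libraries did not overlap at either time in either pretreatment.

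KIF1C fell as well, by 0.47 in DMSO (adjusted p 8.98e-05) and by 0.35 in MAPKi, where the call was lost without replicate 2 (adjusted p 0.46). In DMSO, KIF5A (−0.81 ± 0.29 SE, adjusted p 0.0242), KIF13A (−0.31), KIF3A (−0.30) and KIF2A (−0.27) were lower and KIF24, a regulator of centrioles (1.08 ± 0.30 SE, adjusted p 0.00375), KIF9 (0.47, adjusted p 0.000244) and KIF3B (0.27, adjusted p 0.00107) were higher. In MAPKi, KIF3C (−0.32) and KIF13A (−0.24) completed the falls, and KIF15 was lower (−2.49 ± 0.74 SE; −1.35 with an adjusted p of 0.394 without replicate 1). Leaving out 1 replicate number ended the calls of KIF13A (0.267), KIF24 (0.0829), KIF5A (0.275) and KIF9 (0.112) in DMSO and of KIF13A (0.209) and KIF3C (0.27) in MAPKi, with the highest adjusted p in parentheses.

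The difference in the CHX effect between pretreatments was called for 3 kinesins, all downward in MAPKi (6.6% of all genes were called downward and 4.64% upward). KIF3B had 102, 97.3 and 91.6 CPM with vehicle at 5 h in DMSO and 132, 124 and 118 CPM with CHX, whereas in MAPKi it had 91.4, 95.1 and 90.1 CPM against 86.4, 83.2 and 81.4 CPM (interaction log2 −0.36 ± 0.10 SE, adjusted p 0.00681). KIF9 (−0.44 ± 0.15 SE, adjusted p 0.0417) and KIF5B (−0.18 ± 0.06 SE, adjusted p 0.0415) followed. All 3 calls were lost whenever 1 replicate number was left out (highest adjusted p 0.138, 0.563 and 0.377, respectively).

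**Figure D3:**
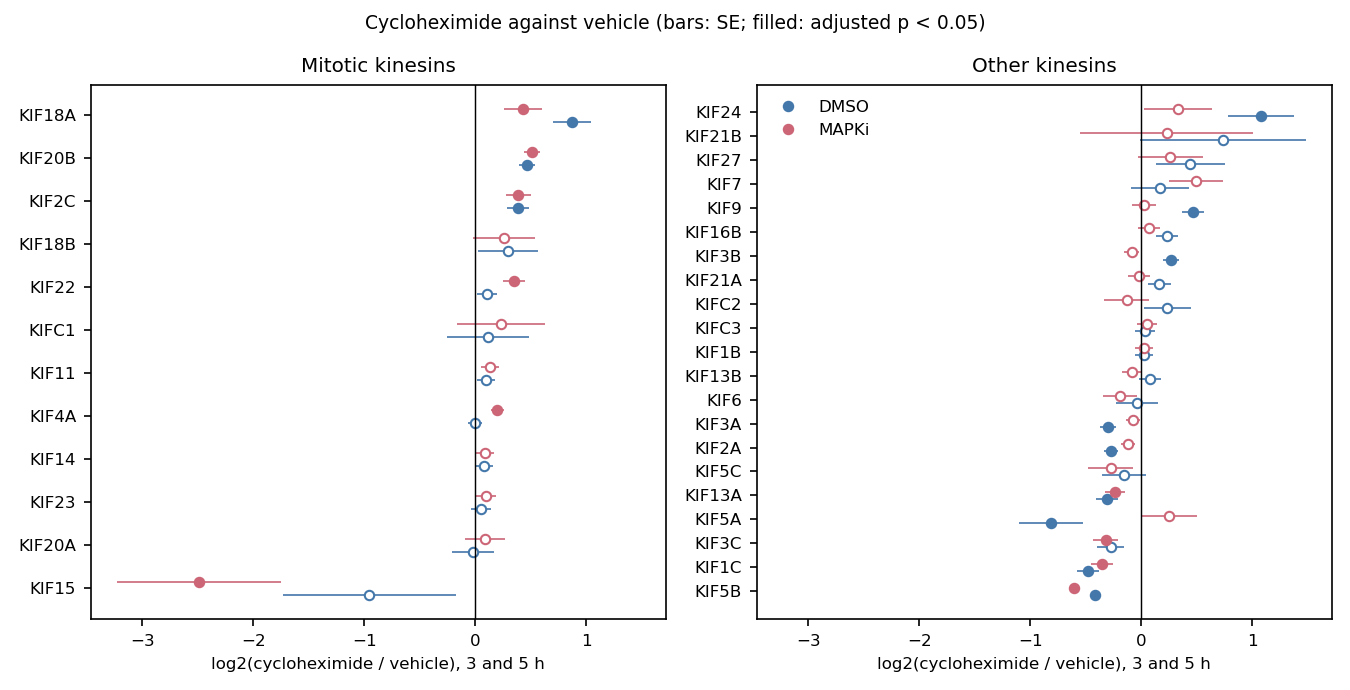
Log2 difference of cycloheximide minus vehicle, mean of 3 and 5 h, for each kinesin in DMSO (blue) and MAPKi (red) cells, with bars for the standard error and filled points where the adjusted p was under 0.05. KIF20B and KIF2C are filled on the right and KIF5B and KIF1C on the left in both pretreatments.

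With transcription blocked by triptolide, many mRNAs declined, and levels were scaled on 36 genes that did not fall, none of them a kinesin. Percentages of the 0 h level given below are relative to those genes. A value above the 0 h level is therefore not shown to be a gain of RNA. In DMSO, 9 of 12 mitotic kinesins and 13 of 21 others were lower at 5 h than at 0 h (46.2% of all genes), and 0 were higher (1.47%). In MAPKi, 5 mitotic kinesins and 15 others were lower (54.7% of all genes) and 0 higher (1.58%). The counts of 0 also held at an unadjusted p under 0.05 and in DESeq2. The median log2 change was −0.67 in DMSO and −0.52 in MAPKi for mitotic kinesins, −0.61 and −0.77 for other kinesins, and −0.53 and −0.70 for all genes.

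These counts depend on that scaling: TMM, which centres the bulk of genes, moved the median of all genes by more than 0.5. Under TMM, DMSO had 0 mitotic kinesins higher and 3 lower, and MAPKi had 4 higher and 0 lower. Of the other kinesins 4 were higher and 2 lower in DMSO, and 4 higher and 3 lower in MAPKi. The shares of all genes given above belong to the stable-gene scaling. The TMM counts are therefore not set against a share of all genes. Relative to the median of all genes, the mitotic median was −0.14 in DMSO and 0.17 in MAPKi under the stable genes and the same under TMM.

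KIF27, a kinesin-4 of the cilium, fell furthest. Its 5 h libraries held 8.35%, 2.97% and 9.47% of the 0 h level in DMSO and 11.4%, 3.69% and 3.39% in MAPKi (log2 −3.73 ± 0.53 SE, adjusted p 6.01e-09, and −3.93 ± 0.54 SE, adjusted p 1.36e-09). Every library was thus below 12% of the start, although the initial normalized count was only 26.5 in DMSO and 31.2 in MAPKi. KIF5B, in contrast, kept 82.3% ± 6.61 in DMSO and 76.5% ± 6.13 in MAPKi (SD, n = 3).

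KIF18A remained at 21.0%, 21.3% and 34.0% in DMSO (log2 −1.96 ± 0.27 SE, adjusted p 2.12e-09) and at 71.3%, 75.9% and 56.1% in MAPKi (−0.60 ± 0.27 SE, adjusted p 0.0574). The difference in decay between pretreatments, averaged over 3 and 5 h, passed the test (1.04 ± 0.33 SE, adjusted p 0.0475), with 0.421% of all genes called in that direction and 3.85% in the other. KIFC2 was the only kinesin called in the other direction, with 143%, 111% and 161% remaining in DMSO and 45.8%, 51.0% and 49.6% in MAPKi (−1.42 ± 0.36 SE, adjusted p 0.00965). Its initial level was higher in MAPKi (normalized count 192 against 71.2). Both calls were lost without replicate 1 and without replicate 2 (highest adjusted p 0.607 for KIF18A and 0.276 for KIFC2).

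KIF20B kept 60.1%, 58.6% and 40.3% in DMSO and 47.4%, 54.6% and 50.1% in MAPKi (log2 −0.92 and −0.98). KIF1B, which carries mitochondria, kept 54.0%, 49.2% and 51.7% in DMSO and 41.2%, 39.2% and 45.4% in MAPKi (log2 −0.95 and −1.24). KIF4A kept 78.6% ± 10.4 and 77.1% ± 3.64 (SD, n = 3). The remaining large falls were in KIFC1 (−1.47), KIF24 (−1.29), KIF23 (−0.93) and KIF11 (−0.77) in DMSO, and in KIF13B (−1.11), KIF7 (−1.0), KIF21A (−0.97), KIF3B (−0.93) and KIFC2 (−0.93) in MAPKi. Leaving out 1 replicate number ended the calls of KIFC1 (0.129), KIF24 (0.296), KIF4A (0.0653) and KIF5B (0.103) in DMSO and of KIF4A (0.208), KIF7 (0.136) and KIFC2 (0.362) in MAPKi, with the highest adjusted p in parentheses.

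**Figure D4:**
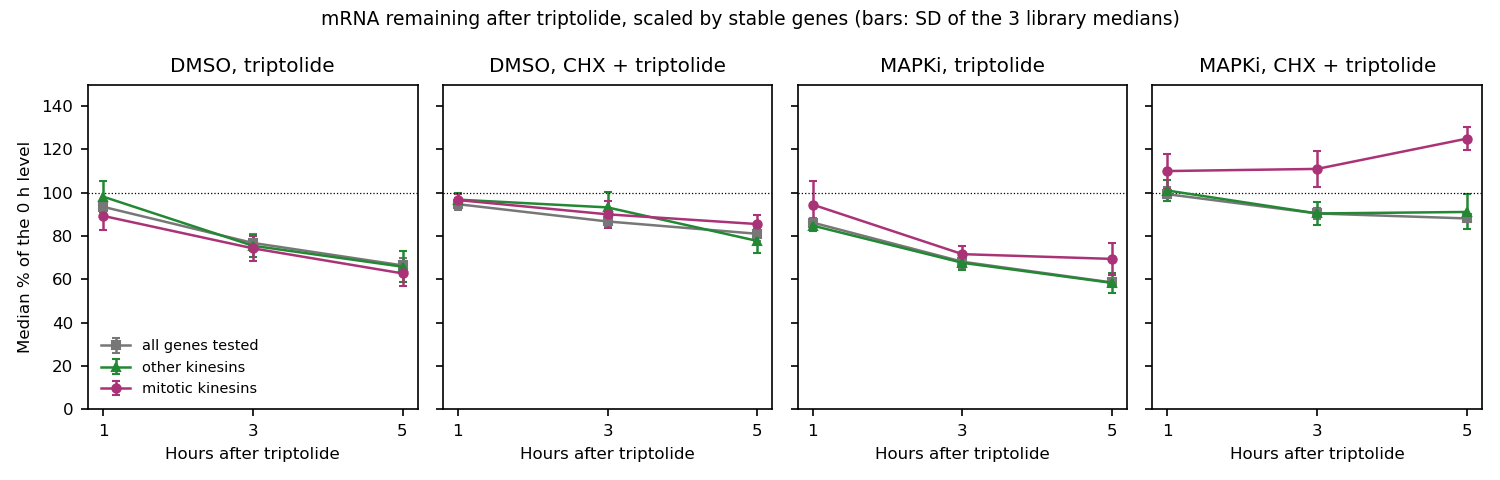
Median percentage of the 0 h level that remained at 1, 3 and 5 h after triptolide alone or with cycloheximide, in DMSO and MAPKi cells, for mitotic kinesins, other kinesins and all genes tested, with bars for the SD over 3 replicate numbers. At 5 h in MAPKi with both inhibitors the mitotic median stood at 125% ± 5.24, against 91.1% ± 8.07 for other kinesins and 88.1% ± 1.6 for all genes. Percentages are relative to the stable genes used for scaling and are not absolute amounts of RNA.

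Adding cycloheximide to triptolide asks how much of the decline needs translation. Averaged over 3 and 5 h, 7 mitotic and 6 other kinesins were higher with TCHX than with T in DMSO (28.4% of all genes higher, 0.468% lower), and 10 mitotic and 11 other kinesins in MAPKi (41.4% higher, 0.535% lower). None was lower by edgeR in either (0 of 33), nor at an unadjusted p under 0.05 (0) or in DESeq2 (0). However, the stable genes used for scaling were chosen for their rise in the T arm, without regard to TCHX. That choice can shift TCHX minus T upward for every gene. The counts of higher and lower kinesins therefore depend on it, and the absence of lower kinesins did not hold under TMM (below). The median log2 difference was 0.38 in DMSO and 0.74 in MAPKi for mitotic kinesins, 0.26 and 0.36 for other kinesins, and 0.23 and 0.34 for all genes.

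TMM moved the median of all genes to −0.00 in DMSO and −0.05 in MAPKi. Under it, 4 mitotic kinesins were higher and 0 lower in DMSO and 6 and 0 in MAPKi. Of the other kinesins, 2 were higher and 2 lower in each. The shares of all genes above belong to the stable-gene scaling, so these counts are not set against a share. The position relative to all genes moved little: the mitotic median lay 0.16 above that of all genes in DMSO and 0.41 above it in MAPKi with the stable genes, 0.15 and 0.40 with TMM, and 0.16 and 0.40 with total counts.

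KIF20B had the smallest adjusted p of the kinesins in both pretreatments. After 5 h in MAPKi it stood at 47.4%, 54.6% and 50.1% of its start with T and at 114%, 123% and 137% with TCHX, without overlap. In DMSO it stood at 60.1%, 58.6% and 40.3% against 80.5%, 66.0% and 76.7%, again without overlap. The log2 differences over 3 and 5 h were 0.93 ± 0.08 SE in MAPKi (adjusted p 7.33e-18) and 0.63 ± 0.08 SE in DMSO (adjusted p 8.79e-11).

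KIF2C, KIF4A and KIF23 followed the same order in MAPKi. KIF2C stood at 81.0%, 105% and 83.8% with T and at 148%, 159% and 137% with TCHX (log2 0.70, adjusted p 1.29e-08). KIF4A stood at 80.8%, 73.5% and 77.0% against 126%, 122% and 137% (0.50, adjusted p 1.76e-08), and KIF23 at 65.5%, 95.2% and 56.5% against 135%, 130% and 110% (0.78, adjusted p 1.39e-10). In each of the 3 the TCHX libraries lay above both the T libraries and the 0 h level on this relative scale, which does not give absolute amounts of RNA. In DMSO the same genes reached 98.0% ± 16.3, 83.2% ± 2.74 and 86.3% ± 4.75 with TCHX (SD, n = 3).

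The largest differences were in lowly expressed genes. KIF27 stood at 87.8%, 71.3% and 134% with TCHX in DMSO and at 68.8%, 48.5% and 48.0% in MAPKi, against at most 11.4% with T (log2 2.00 ± 0.36 SE and 1.82 ± 0.35 SE). The initial normalized count in DMSO was 12.1 in the TCHX arm and 26.5 in the T arm. KIF18A differed by 1.23 ± 0.19 SE in DMSO and 0.94 ± 0.18 SE in MAPKi, and KIF22 by 0.54 and 0.82. KIF13B, a carrier of signalling proteins, differed by 0.58 and 0.79.

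KIF15 (2.33) and KIFC1 (1.02) also passed in MAPKi and KIFC2 (0.53) in DMSO. KIF15 lost its call without replicate 1 or 2 (highest adjusted p 0.194), KIFC1 without any 1 of the replicate numbers (0.19) and KIFC2 likewise (0.135). In DMSO, KIF2C lost its call without replicate 1 (adjusted p 0.108) and KIF4A without replicate 2 or 3 (highest 0.314). For the partner lists, beside 28.4% of all genes higher in DMSO and 41.4% in MAPKi and all-gene medians of 0.23 and 0.34, 12 of 17 mitotic partners were higher in DMSO and 16 in MAPKi, with medians of 0.40 and 0.56, whereas the light chains and adaptors had 1 and 9 of 14, with medians of 0.17 and 0.29. Dynein and dynactin had 7 and 10 of 19, with medians of 0.12 and 0.30.

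The difference between pretreatments in this effect was called upward for 3 kinesins (6.82% of all genes) and downward for 0 (0.294%). These were KIF13A (0.44 ± 0.14 SE, adjusted p 0.0424), KIF14 (0.42 ± 0.14 SE, adjusted p 0.0443) and KIF2A (0.35 ± 0.10 SE, adjusted p 0.0151). KIF14, for example, stood at 71.3%, 81.4% and 66.9% with T and 76.4%, 73.3% and 76.4% with TCHX in DMSO, overlapping, but at 77.9%, 85.0% and 78.5% against 142%, 118% and 185% in MAPKi, apart. The median over mitotic kinesins was 0.29, against 0.18 for other kinesins and 0.13 for all genes. Each of the 3 calls was lost when at least 1 replicate number was left out, and under TMM (highest adjusted p 0.432, 0.409 and 0.342).

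The study summarised translation-dependent decay (TDD) in an index, the normalized count with TCHX minus that with T divided by the initial count. The study's methods give the initial count as that at 0 h without naming the arm, and the vehicle arm was taken here. An index of 0 means no effect of translation on decay and 1 a rescue as large as the starting level. By the study's rule, an unadjusted p of at most 0.05 in a linear model with time and replicate, the index was higher in MAPKi for 7 of 12 mitotic kinesins (12.6% of the 12996 genes with an index) and lower for 0 (1.45%). The model counts the 3 h and 5 h indices of a replicate number as separate values, although they share 1 initial count. Its p-values can therefore be too small. Of 20 other kinesins with an index, 3 were higher (KIF1B, KIF2A and KIF3A) and 1 lower (KIFC2). After adjustment over all genes 0 kinesins passed, and 6 of the 12996 genes did. For 3 libraries against 3, an exact permutation test of 1 gene cannot give a p below 0.1.

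The median index of the mitotic kinesins went from 0.2 ± 0.0291 in DMSO to 0.428 ± 0.0883 in MAPKi, that of the other kinesins from 0.107 ± 0.0642 to 0.211 ± 0.023, and that of all genes from 0.122 ± 0.0342 to 0.179 ± 0.011 (SD, n = 3 replicate numbers). The mitotic kinesins called were KIF14, KIF20B, KIF22, KIF23, KIF2C, KIF4A and KIFC1. KIF4A had 0.0732, 0.0992 and 0.222 in DMSO and 0.322, 0.374 and 0.367 in MAPKi (difference 0.223 ± 0.0428 SE, adjusted p 0.107). KIF23 had 0.125, 0.309 and 0.268 against 0.447, 0.459 and 0.460 (0.221, adjusted p 0.242).

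KIF20B had 0.259, 0.233 and 0.415 in DMSO and 0.429, 0.550 and 0.608 in MAPKi (difference 0.227, adjusted p 0.259), and KIF2C had 0.391, 0.114 and 0.204 against 0.463, 0.450 and 0.537 (0.247, adjusted p 0.274). In all 4 genes each MAPKi replicate lay above each DMSO replicate. KIF2A, the other kinesin with the smallest p, had 0.0329, −0.0038 and 0.197 against 0.243, 0.230 and 0.231 (0.159, adjusted p 0.128). KIFC2 went the other way, from 0.630, 0.935 and 0.942 to 0.354, 0.343 and 0.314 (−0.499, adjusted p 0.353), without overlap. The count of kinesins with a higher index was 10 in all, 3 under TMM, 6 under total counts and 3 to 6 when 1 replicate number was left out. No share of all genes is set beside these alternative counts. They therefore do not show whether the mitotic kinesins stay above that share. Of the 7 mitotic calls, those of KIF4A and KIFC1 held whichever replicate number was left out, and the unadjusted p rose as far as 0.0854 for KIF20B, 0.0992 for KIF23, 0.137 for KIF14, 0.201 for KIF2C and 0.204 for KIF22, as it did for KIF2A (0.0682) and KIFC2 (0.198). The index of KIFC1 rests on very few reads, since its MAPKi vehicle libraries at 0 h, the initial level, held 4, 5 and 7.

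**Figure D5:**
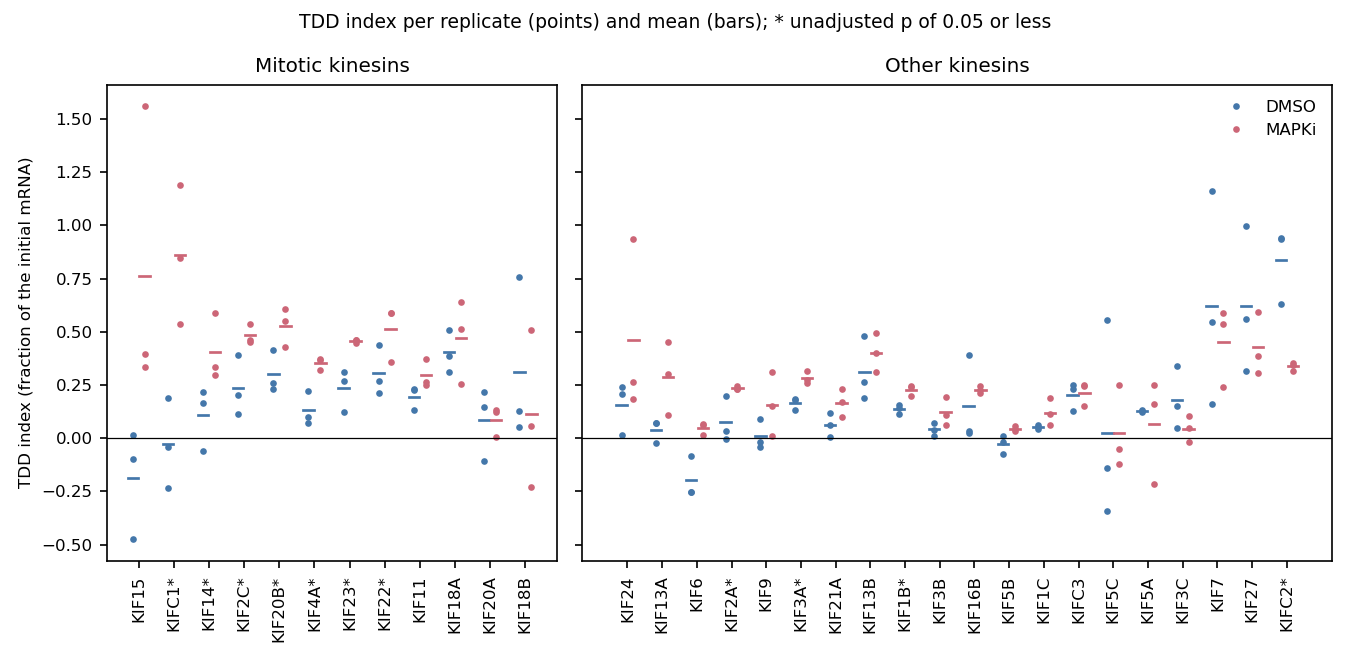
TDD index per replicate number, mean of 3 and 5 h, for the 12 mitotic and 20 other kinesins with an index, in DMSO (blue) and MAPKi (red), with bars at the means. The MAPKi points of KIF4A, KIF23, KIF20B and KIF2C lie above their DMSO points, and those of KIFC2 below.

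The study's interest in amino acid supply makes the make-up of the encoded proteins of interest. Coding sequences of the MANE transcripts in GENCODE 44 gave a share of aspartate, glutamate, lysine and asparagine with a median of 26.95% for the 12 mitotic kinesins, 26.36% for the 21 others tested and 21.67% for the 11932 tested genes with a coding sequence (quartiles 17.88% and 25.12%). Among the mitotic kinesins it ran from 18.43% in KIF18B to 35.6% in KIF20B. The 4 residues differed in direction. Aspartate had a median of 4.339% in the mitotic kinesins, below the 4.81% of all tested genes, and 5.263% in the other kinesins. Glutamate had medians of 9.262% in mitotic kinesins, 9.474% in the others and 6.97% in all tested genes, lysine 7.956%, 7.566% and 5.801%, and asparagine 4.915%, 4.167% and 3.483%. The GAA codon for glutamate made up a median of 5.634%, 4.18% and 2.836% of codons, and codons ending in A or T 55.3%, 43.78% and 42.06%. These shares are properties of the sequence and describe the genes, with no test.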

How the data were processed

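RNA of A375 cells was measured in 96 QuantSeq libraries. The authors deposited raw counts, whole numbers of reads per gene, made per the submitters' processing notes with fastp 0.20.1, HISAT2 2.2.1 and HTSeq 0.13.5 on GRCh38.p13, from exons; use of strand was not given in the sources used here, no molecular identifiers were used, and repeated reads of 1 molecule count separately. Counts were tested with edgeR 4.0.16 in R 4.3.3 by the quasi-likelihood test, with 1 mean for each of the 32 groups over all 96 libraries, after filterByExpr (14948 genes), two-sided, with Benjamini-Hochberg adjustment over all genes and a threshold of 0.05. Library sizes were scaled by TMM, or, where triptolide was compared, by 36 stable genes (over 0.2 CPM and at least 1.1 times as high with triptolide at both 3 and 5 h). The study's rule is worded as 3 or 5 h; requiring both was a choice made here, and taking either gave 526 genes, an alternative added after seeing the data. CPM are TMM-scaled. Standard errors are the log2 difference divided by the root of F. The TDD index followed the study's formula and linear model, with the vehicle arm at 0 h as the initial level, which the study does not specify. Scripts were tested on simulated counts.

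The members and lists were chosen with earlier results of these data known. The text names every member called at 0 h, and in each other comparison up to 8 of the members called with the largest differences, besides genes named for their role or because a limit touched them; of each partner list, the 3 with the largest differences among those called. Replicate numbers were checked for pairing: of 1488 correlations between same-numbered libraries of different groups, 360 were over 0.1 (range −0.377 to 0.396). This check does not settle pairing. Column names of the counts share a prefix within each replicate number, and its meaning is not given. The edgeR tests did not treat the numbers as pairs, whereas the linear model of the TDD index holds a term for replicate. Alternatives were other scalings, no filter, DESeq2 1.42.0, a replicate block, another initial level for the index and leaving out each replicate number. Promoters came from RefSeq (GRCh38.p14), gene positions and coding sequences from GENCODE 44, matched by symbol.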

Additional observations from a re-analysis of the deposited data

Results flagged for a closer look

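Flagged were the kinesins whose response differed between MAPKi and DMSO by an interaction term in edgeR, with adjusted p under 0.05 over all genes. Between 0 and 5 h of vehicle, the MAPKi minus DMSO difference moved by 0.79 on the log2 scale for KIF13A and by −0.55 for KIF4A. The response to cycloheximide without triptolide differed by −0.36 for KIF3B, −0.44 for KIF9 and −0.18 for KIF5B. The decline after triptolide differed by 1.04 for KIF18A, which lost less in MAPKi, and by −1.42 for KIFC2, which lost more. Both are relative to the T libraries at 0 h. Their MAPKi mean lay below the other arms for KIF18A and above them for KIFC2. The effect of cycloheximide during triptolide differed by 0.44 for KIF13A, 0.42 for KIF14 and 0.35 for KIF2A. Every 1 of these calls was lost when at least 1 replicate number was left out.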

How the results depend on the processing

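Of 1795 values recomputed under alternatives, 1236 for single genes kept direction and call, 259 kept direction but lost the call and 22 reversed, while 207 counts of kinesins stayed within 1.5 times and 71 moved; the causes were not tested. The scaling mattered most where triptolide was involved. Under TMM, the 5 h change after triptolide reversed in DMSO for KIF14 (0.08), KIF4A (0.17), KIF5B (0.24) and KIFC3 (0.12), and in MAPKi for KIF11 (0.13), KIF16B (0.09), KIF1C (0.04), KIF22 (0.06), KIF23 (0.31), KIF3A (0.04), KIF3C (0.24), KIF4A (0.42), KIF5B (0.39) and KIF6 (0.19), as did TCHX minus T for KIF4A in DMSO (−0.02) and for KIF16B (−0.03), KIF21A (−0.07), KIF3B (−0.13) and KIFC3 (−0.02) in MAPKi. Under total counts the change after triptolide reversed for KIF5B (0.05) in DMSO and for KIF4A (0.07) and KIF5B (0.04) in MAPKi. Counts of kinesins after triptolide went from 0 higher and 22 lower in DMSO to 4 and 5 under TMM and 2 and 12 under total counts, and in MAPKi from 0 and 20 to 8 and 3 and to 1 and 9, with 1 higher also with no filter and with 526 stable genes at 3 or 5 h. TCHX minus T went from 13 higher and 0 lower in DMSO to 6 and 2 under TMM and 6 and 1 under total counts, and in MAPKi from 21 and 0 to 8 higher and 2 lower under TMM and 1 lower under total counts. Its difference between pretreatments went from 3 higher to 0 under TMM and with no filter and to 1 under total counts and with the 526 stable genes. The decay difference, 1 higher and 1 lower, had 0 lower under TMM, and 0 higher and 2 lower with no filter. The kinesins with a higher TDD index went from 10 to 3 under TMM and 6 under total counts, and the 1 with a lower index to 0 under TMM and with the 526 stable genes.

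Without triptolide, the change of the MAPKi difference from 0 to 5 h, 1 higher and 1 lower, had 2 higher with no filter, and 2 higher and 2 lower in DESeq2. Cycloheximide in MAPKi had 3 higher and 3 lower with no filter, from 5 and 5. Its difference between pretreatments, 0 higher and 3 lower, had 1 higher with DESeq2 size factors and in DESeq2, 1 lower with DESeq2 size factors and 0 lower with no filter. Leaving out 1 replicate number gave 3 to 5 kinesins higher in MAPKi at 1 h, 0 to 0 in both directions for the change from 0 to 5 h, 2 to 4 higher and 2 to 3 lower with cycloheximide in MAPKi, 0 to 2 higher and 0 to 0 lower for its difference between pretreatments, 0 to 1 higher after triptolide in each pretreatment, 0 to 1 higher and 0 to 4 lower for the decay difference, 8 to 12 higher for TCHX minus T in DMSO, 0 to 1 higher for its difference between pretreatments, and 3 to 6 higher and 0 to 1 lower for the TDD index. Low depth limits KIF15, KIFC1, KIF27 and KIF24.

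A replicate block, which treats the shared replicate numbers as pairs, changed the call of KIFC1 at 0 h (adjusted p 0.0509), gave 2 kinesins lower for the change from 0 to 5 h and 1 higher for the difference of the cycloheximide effect, and changed no other call of the members named or count by over 1.5 times. Deviations of same-numbered libraries correlated at 0.0257 on average, against −0.0127 for libraries of different numbers. Scaling on genes stable in both the T and TCHX arms was not run because 1 gene qualified, and the 526 genes stable at 3 or 5 h were taken in its place after the data had been seen.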
